A study of Mus musculus with 6 samples.

Results

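Pancreatic ductal adenocarcinoma commonly loses or mutates a few tumour suppressors. The 8 genes described here are drivers of this cancer and genes that the suppressor p53 controls: Trp53, its targets Mdm2, Cdkn1a and Ccng1, the cell cycle inhibitors Cdkn2a and Cdkn2b, the signal mediator Smad4 and the oncogene Myc. They were chosen by symbol, and all 8 of 8 were found, each on 1 row, among the 55357 genes of the deposited table. All 8 passed the filter on low values.

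RNA was measured in subcutaneous tumours of KPC1242 cells, a mouse pancreatic cancer line, 250000 of which were injected into each C57BL/6J mouse. There were 3 tumours from mice given folinic acid (FA, a reduced folate) at 2 mg a day by gavage from day 8 to day 12, and 3 from mice given phosphate-buffered saline (PBS), all collected on day 14. The question was what oral FA changes in the tumour. KPC lines come from a mouse model in which Cre recombinase switches on a mutant Trp53 in the pancreas. The genotype of KPC1242 is not given in the labels, all tumours come from this 1 line, and a gene's total does not separate mutant from normal mRNA or tumour cells from host cells. The ductal markers Krt19, Krt8, Krt18, Krt7, Epcam and Sox9 were above 0 in all 6 tumours and summed to between 4355 and 5393 TPM. Most of the sum came from Krt18, Krt8 and Krt19, with means of 1680, 1612 and 1181 TPM, while Epcam and Sox9 averaged 54.1 and 45.4 TPM. Being above 0 does not test the origin, since 23858 to 25669 genes were above 0 in each tumour. TPM (a transcript abundance that is corrected for transcript length and adds up to one fixed sum in each tumour) allows levels of different genes to be compared, but the number of reads behind them is unknown.

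p53 is a transcription factor that is stabilised by DNA damage and oncogenic stress. It switches on Cdkn1a, whose product p21 blocks cyclin-dependent kinases, Ccng1, which encodes cyclin G1, and Mdm2, which encodes the ubiquitin ligase that sends p53 itself for degradation. Cdkn2a makes 2 unrelated proteins from separate start sites: p16Ink4a inhibits Cdk4 and Cdk6, and p19Arf inhibits Mdm2. Cdkn2b, its neighbour, encodes the Cdk4 and Cdk6 inhibitor p15Ink4b. Smad4 carries the growth-inhibitory signal of TGF-beta to the nucleus, and Myc drives growth and ribosome production.

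The upstream sequences are shown because 2 of the p53 targets carry a p53 motif there and because the Cdkn2a row adds up transcripts from 2 starts. RefSeq windows (build GRCm38.p6) were searched for 6 of the 8 genes. The upstream sequences of Smad4 and Myc were not searched. The build of the expression table is not given in the sources used here. The search covered 300 bases, 250 before and 50 after each start, for the p53 consensus of paired 10-base half-sites without a spacer and with at most 1 letter off. It also covered the E-box CACGTG, which MYC and other factors bind. Both motifs read the same on both strands. The paired p53 consensus was held by 29 of 32851 windows (0.0883%), among them the upstream start of Cdkn1a, at -51 to -32, and Ccng1, at -195 to -176. Both of these sites are 1 letter off, and neither is an exact match. The allowance of 1 letter was set after the sequences were seen, so the share of windows is not independent of these 2 sites. A single half-site was held by 8.36% of windows, among them those of Trp53 and Mdm2 and both windows with the paired consensus. The E-box was held by 7.15% of windows, among them that of Trp53, at 11 to 16 bases after the start. No E-box or p53 half-site was in the windows of Cdkn2a or Cdkn2b, or in that of the downstream start of Cdkn1a. A match is a string of letters and not a measured binding site. Sites elsewhere in or near a gene, Mdm2 among them, lay outside the search and would be missed. Below, 250 bases before each start are given 5′ to 3′, with the paired p53 consensus in capitals.
Cdkn1a, upstream start, chr17:29090729-29090978, plus strand: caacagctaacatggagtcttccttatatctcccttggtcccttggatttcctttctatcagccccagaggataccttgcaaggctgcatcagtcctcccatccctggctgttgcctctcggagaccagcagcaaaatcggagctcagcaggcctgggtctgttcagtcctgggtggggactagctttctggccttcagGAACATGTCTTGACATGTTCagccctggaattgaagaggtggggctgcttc
Ccng1, chr11:40755287-40755536, minus strand: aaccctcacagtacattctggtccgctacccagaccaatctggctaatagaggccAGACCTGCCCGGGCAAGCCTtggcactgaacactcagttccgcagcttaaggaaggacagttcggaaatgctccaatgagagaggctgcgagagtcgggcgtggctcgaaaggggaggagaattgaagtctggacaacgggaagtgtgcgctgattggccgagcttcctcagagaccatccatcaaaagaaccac
Cdkn2a, upstream start (p19Arf), chr4:89294620-89294869, minus strand: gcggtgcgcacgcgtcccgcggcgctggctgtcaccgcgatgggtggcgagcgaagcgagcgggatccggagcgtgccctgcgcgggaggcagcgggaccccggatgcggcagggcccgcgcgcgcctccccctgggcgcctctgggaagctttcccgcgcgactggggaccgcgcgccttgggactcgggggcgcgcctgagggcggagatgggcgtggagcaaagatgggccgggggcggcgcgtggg
Cdkn2a, downstream start (p16Ink4a), chr4:89282193-89282442, minus strand: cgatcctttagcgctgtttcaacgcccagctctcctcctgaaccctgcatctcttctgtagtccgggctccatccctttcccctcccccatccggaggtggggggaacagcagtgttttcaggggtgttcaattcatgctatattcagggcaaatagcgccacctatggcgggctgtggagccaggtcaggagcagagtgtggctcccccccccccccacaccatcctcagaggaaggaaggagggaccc
Cdkn2b, chr4:89311033-89311282, minus strand: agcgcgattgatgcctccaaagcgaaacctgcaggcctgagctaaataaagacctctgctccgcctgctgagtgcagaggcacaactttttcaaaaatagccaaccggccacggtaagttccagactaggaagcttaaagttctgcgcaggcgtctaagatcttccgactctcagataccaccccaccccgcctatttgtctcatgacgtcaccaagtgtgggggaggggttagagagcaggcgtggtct
Trp53, 26 bases around the E-box (capitals), chr11:69580359-69580384, plus strand: tttcccctccCACGTGctcaccctgg
Of these windows, the upstream Cdkn2a start was the richest in G and C (78.4%), against 60.0% at its downstream start and 53.6% at Cdkn2b.

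None of the 8 genes differed between FA and PBS tumours past the threshold. Values were compared as log2(TPM + 1) with limma, which borrows the estimate of spread across genes, over the 15023 genes that averaged 1 TPM or more. The threshold was a Benjamini-Hochberg adjusted p under 0.05 over all of them. Of these 15023 genes, 0 (0%) were called, and 192 (1.28%) had an unadjusted p under 0.05. Of the 8 genes, 0 were called, 0 had an unadjusted p under 0.05, and each had an adjusted p of 1 by limma. The groups were without overlap for 1 of the 8, Myc, and for 705 of all genes tested (4.69%). The labels do not say that the tumours came from separate mice, and the p-values measure the spread between these tumours. The sample descriptions carry 1 prefix in FA tumours and another in PBS tumours, so whatever it marks and treatment cannot be told apart.

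FA replicate 3 stood apart before any gene is considered. Across genes it correlated with the others at 0.949 to 0.968, while each other tumour reached 0.986 or 0.987 with its nearest. It held the highest value of the 6 tumours for 29.4% of the genes tested and the lowest for 37.5%. Its fibroblast markers summed to 3598 TPM against 955 to 1868 TPM in the other 5 tumours, its endothelial markers to 148 against 37.0 to 66.5 TPM, its macrophage markers to 210 against 114 to 143 TPM and its skeletal muscle markers to 936 against 12.4 to 132 TPM. All 6 fibroblast, 4 endothelial, 5 macrophage and 5 muscle markers had a higher mean TPM in FA tumours, but this rests on FA replicate 3. For each of these lists the sums of FA replicates 1 and 2 were below that of PBS replicate 1. Fibroblast markers, for example, summed to 1063 and 1330 TPM in them, against 955 to 1868 TPM in PBS tumours. On the log2 scale the fibroblast marker Lum was lower in FA (-0.098), and 50.7% of all genes tested had a positive difference. Ductal markers also had their highest sum in FA replicate 3, at 5393 against 4355 to 4999 TPM, although Sox9 among them was lowest there. T cell markers, 3 of 4 of them under 1 TPM on average, summed to 5.27 TPM in FA replicate 3 and to between 2.12 and 3.78 TPM elsewhere. Skin keratinocyte markers stood at 13.3 against 9.37 to 11.6 TPM, with 2 of the 4 under 1 TPM on average and 1 of these at 0 in every tumour. The higher sum came from Krt14, at 6.59 against 1.69 to 2.94 TPM. Krt10 was lowest in FA replicate 3, at 6.68 against 7.47 to 8.62 TPM. The acinar markers, 3 of 4 of them under 1 TPM on average, summed to 47.1 against 42.9 to 78.8 TPM. Of the 8 genes, 4 were highest and 3 lowest in FA replicate 3. In whole-tumour RNA, fewer cells of a type and less RNA per cell cannot be told apart, and the part of other cell types in the values below was not tested.

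**Figure D1:**
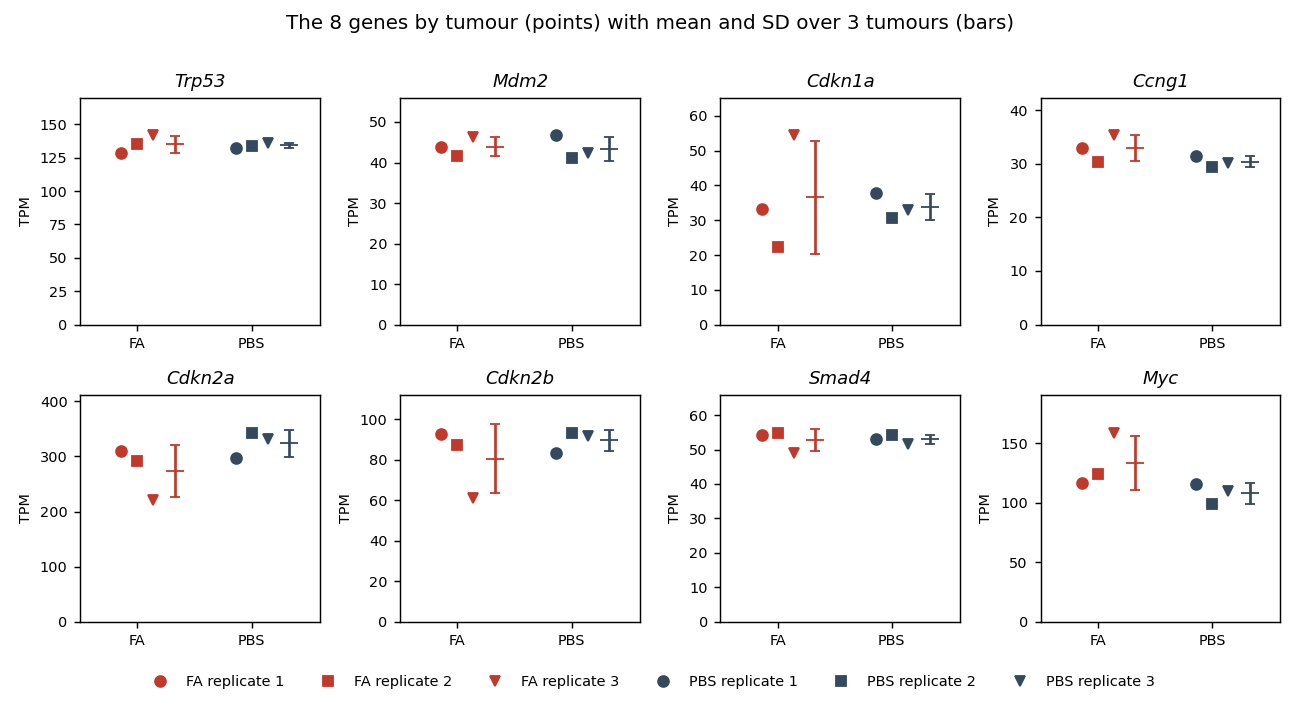
TPM (vertical axes, each starting at 0) of the 8 genes in 3 FA tumours (left, red) and 3 PBS tumours (right, dark), with symbols for replicates and bars for mean and SD. FA replicate 3 (red triangle) is the highest for Trp53, Cdkn1a, Ccng1 and Myc and the lowest for Cdkn2a, Cdkn2b and Smad4, and the groups are apart for Myc alone.

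The 8 genes kept nearly the same order of level in every tumour. Cdkn2a was the highest in all 6, with a mean of 299 TPM, above 97.2% of the genes tested. Trp53 and Myc followed at 135 and 120 TPM, then Cdkn2b at 85.1, Smad4 at 52.9, Mdm2 at 43.6, Cdkn1a at 35.2 and Ccng1 at 31.6 TPM. Ccng1, the lowest, was still above 66.5% of the genes tested. The ranges over the 6 tumours overlapped for 3 neighbouring pairs in this order, Trp53 and Myc, Mdm2 and Cdkn1a, and Cdkn1a and Ccng1. They were apart for the other 4 pairs. FA replicate 3 had the order changed most, with Myc above Trp53 and Cdkn1a above both Smad4 and Mdm2.

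Trp53 was the steadiest of the 8. Its level was 128, 135 and 142 TPM with FA, against 133, 134 and 136 TPM with PBS. The FA values spanned the PBS values on both sides. The means were 135 ± 6.64 TPM with FA and 134 ± 1.88 TPM with PBS (SD, n = 3 each). The log2 difference was 0.007, with a 95% interval from -0.14 to 0.15, a fold between 0.908 and 1.11. The SD within groups on the log2 scale was 0.0518, above that of 4.41% of the genes tested. Wrap53, the gene next to Trp53 and known in humans as its antisense partner, was at 13.1, 15.7 and 17.6 TPM with FA, against 16.0, 14.4 and 15.6 TPM with PBS. The RefSeq gene spans of Trp53 and Wrap53 (GRCm38.p6) do not overlap.

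Mdm2, the p53 target that degrades p53, also varied little. It was at 43.9, 41.5 and 46.2 TPM with FA, against 46.7, 41.0 and 42.2 TPM with PBS, and the groups overlapped over nearly their whole ranges. Means were 43.9 ± 2.36 TPM with FA and 43.3 ± 2.96 TPM with PBS (SD, n = 3 each). The log2 difference was 0.019, with a 95% interval from -0.18 to 0.21. The SD within groups was 0.086, above that of 17.3% of the genes tested. Slc35e3, the next gene on one side of Mdm2, was at 42.9, 39.2 and 17.3 TPM with FA, against 36.2, 45.4 and 37.4 TPM with PBS. The low value of FA replicate 3 for Slc35e3 was thus not seen for Mdm2.

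Cdkn1a was the most variable of the 8. It was at 33.2, 22.2 and 54.4 TPM with FA, against 37.9, 30.6 and 32.8 TPM with PBS. The FA group held both the highest and the lowest of the 6 values, 2.44-fold apart, and the PBS values lay between them. Means were 36.6 ± 16.3 TPM with FA and 33.8 ± 3.75 TPM with PBS (SD, n = 3 each), with a log2 difference of 0.028 and a 95% interval from -0.68 to 0.74. These data therefore allow a fold between 0.624 and 1.67 for Cdkn1a. The SD within groups, 0.457, was above that of 91.0% of the genes tested. Without FA replicate 3 the difference was -0.30, with an interval from -0.73 to 0.13. Trp53cor1, the long noncoding RNA gene next to Cdkn1a that p53 also switches on, averaged under 1 TPM, at 0.18, 0.04 and 0.17 TPM with FA, against 0.04, 0 and 0.13 TPM with PBS.

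Ccng1, the cyclin G1 gene with the p53 motif shown above, was at 32.96, 30.4 and 35.2 TPM with FA, against 31.5, 29.4 and 30.2 TPM with PBS. FA replicates 1 and 3 were above every PBS tumour and FA replicate 2 was not. Means were 32.9 ± 2.43 TPM with FA and 30.4 ± 1.07 TPM with PBS (SD, n = 3 each). The log2 difference was 0.11, with a 95% interval from -0.089 to 0.31. It was 0.059 without FA replicate 3.

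The 3 p53 targets ranked the tumours alike, and Trp53 ranked them in another order. Spearman's rho over the 6 tumours was 0.886 for Cdkn1a and Mdm2, and 0.771 both for Cdkn1a and Ccng1 and for Mdm2 and Ccng1. With Trp53 it was 0.086 for Cdkn1a, -0.086 for Mdm2 and 0.029 for Ccng1. Such agreement was not particular to the targets, with 0.829 for Myc and Ccng1 and 0.886 for Cdkn2a and Cdkn2b. The order of Trp53 rests on values within 1.10-fold of each other. These 6 points share the treatment groups and FA replicate 3, and the values are a description.

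**Figure D2:**
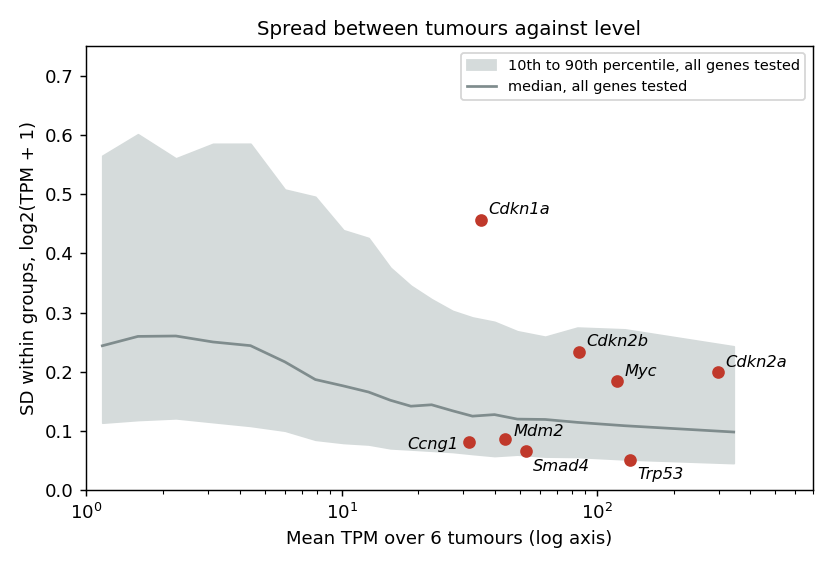
SD within groups of log2(TPM + 1) (vertical axis) against mean TPM over 6 tumours (horizontal, log axis) for the 8 genes (red points), with the median (line) and the 10th to 90th percentile (grey) of all genes tested at each level. Cdkn1a, at an SD of 0.457, lies above the grey band, and Trp53, at 0.0518, lies at its lower edge.

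Cdkn2a, the p16Ink4a and p19Arf gene, was lower on average in FA tumours, within the spread between tumours. It was at 310, 291 and 221 TPM with FA, against 296, 343 and 332 TPM with PBS. FA replicate 3 was the lowest of the 6, while FA replicate 1 lay above PBS replicate 1, so the groups overlapped. Means were 274 ± 46.8 TPM with FA and 324 ± 24.4 TPM with PBS (SD, n = 3 each). The log2 difference was -0.25 ± 0.13 (standard error), with a 95% interval from -0.57 to 0.07 and an unadjusted p of 0.105 by limma. Over the 20 assignments of 3 tumours, the exact two-sided permutation p was 0.2, where the smallest possible is 0.1. Without FA replicate 3 the difference was -0.11, with an interval from -0.29 to 0.08. The table holds 1 value for the gene, so p16Ink4a and p19Arf mRNA were not told apart.

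Cdkn2b followed Cdkn2a across the tumours. It was at 93.0, 87.5 and 61.4 TPM with FA, against 83.5, 93.4 and 91.9 TPM with PBS. FA replicate 3 alone lay below the other 5, and the rest of the groups overlapped. Means were 80.6 ± 16.9 TPM with FA and 89.6 ± 5.31 TPM with PBS (SD, n = 3 each), a log2 difference of -0.17 with a 95% interval from -0.55 to 0.21. Without FA replicate 3 it was 0.011, on the other side of 0. Cdkn2a and Cdkn2b had a Pearson r of 0.964 and a Spearman's rho of 0.886 over the 6 tumours, as a description. Their transcripts in GENCODE M21, 2 for Cdkn2a and 1 for Cdkn2b, had 0 runs of 30 bases in common, so an exactly matching read of that length or longer cannot come from both. Mtap, the methylthioadenosine phosphorylase gene on the other side of Cdkn2a, was also lowest in FA replicate 3. It was at 91.7, 90.2 and 81.7 TPM with FA, against 91.5, 88.6 and 94.6 TPM with PBS. All 3 genes of this stretch of chromosome 4 were detected in every tumour.

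Smad4 was at 54.2, 54.9 and 49.1 TPM with FA, against 53.1, 54.3 and 51.7 TPM with PBS. FA replicate 3 was again the lowest, and the other 5 tumours lay within a few TPM of each other. Means were 52.7 ± 3.16 TPM with FA and 53.02 ± 1.30 TPM with PBS (SD, n = 3 each). The log2 difference was -0.0099, with a 95% interval from -0.18 to 0.16. Its SD within groups, 0.0659, was above that of 9.10% of the genes tested.

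Myc was the only one of the 8 whose FA values were all above its PBS values. It was at 117, 124 and 159 TPM with FA, against 115, 98.5 and 110 TPM with PBS. FA replicate 1 and PBS replicate 1, the values nearest each other, were 117 and 115 TPM. Means were 133 ± 22.4 TPM with FA and 108 ± 8.56 TPM with PBS (SD, n = 3 each). The log2 difference was 0.29 ± 0.13 (standard error), with a 95% interval from -0.013 to 0.60, an unadjusted p of 0.0577 and an adjusted p of 1 by limma. The exact two-sided permutation p was 0.1, the smallest that 3 against 3 allows. Without FA replicate 3 the difference was 0.16, with an interval from -0.035 to 0.35. Across the 6 tumours Myc ran opposite to Cdkn2a, with a Pearson r of -0.98 and a Spearman's rho of -0.943, as a description.

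**Figure D3:**
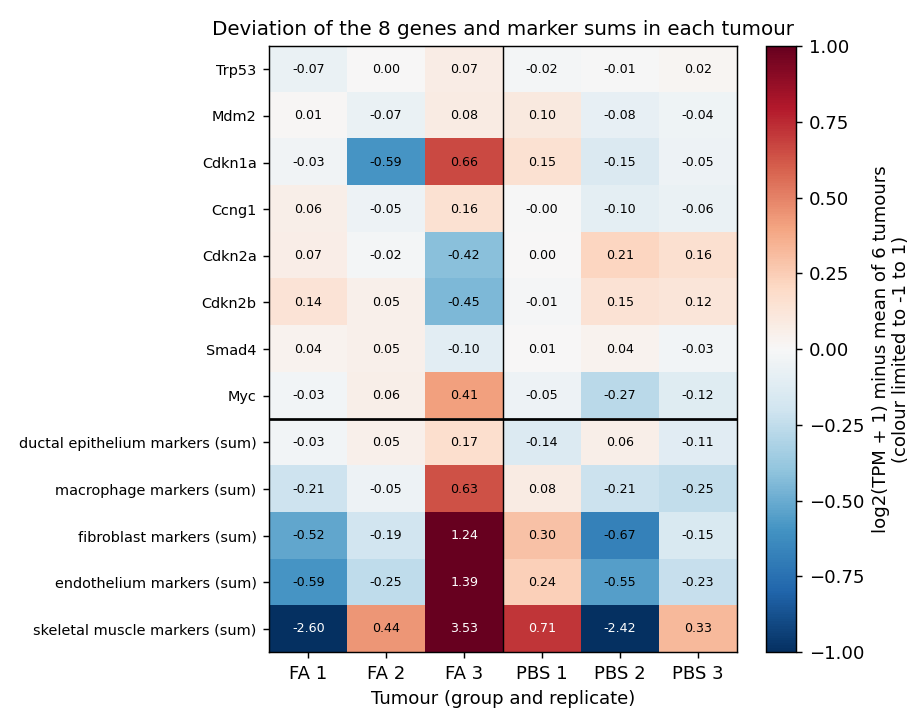
Deviation of each tumour from the mean of the 6 tumours, in log2(TPM + 1), for the 8 genes (top) and for the summed TPM of marker lists (bottom), with FA tumours left of PBS tumours and colour limited to -1 to 1. In FA replicate 3, Cdkn1a (0.66) and Myc (0.41) were above and Cdkn2a (-0.42) and Cdkn2b (-0.45) below the mean, beside fibroblast markers at 1.24 and endothelial markers at 1.39.

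**Figure D4:**
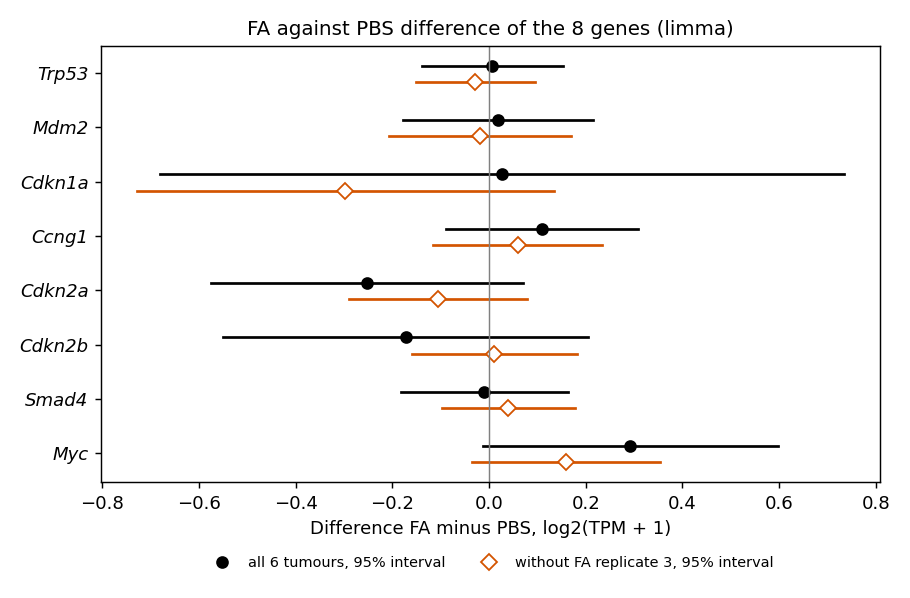
Difference of FA minus PBS tumours in log2(TPM + 1), with 95% intervals from limma, for all 6 tumours (black) and without FA replicate 3 (orange). All intervals include 0, and Cdkn1a, at 0.028 with all tumours, is at -0.30 without FA replicate 3.

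The genes most like each of the 8 over the 6 tumours were sought among 10658 genes with a symbol and at least 5 TPM, by Pearson's r of log2(TPM + 1). They were Ric8a (0.998) for Trp53, Anln (0.988) for Mdm2, Timeless (0.993) for Cdkn1a, Ccnf (0.994) for Ccng1 and Gtf2ird1 (0.996) for Cdkn2a. For the rest they were Dctn4 (0.998) for Cdkn2b, Mat2b (0.998) for Smad4 and Foxs1 (0.992) for Myc. With 6 tumours, of which 1 stands apart, many genes reach such values. Between 113 genes, for Ccng1, and 1177 genes, for Cdkn2b, had an r over 0.9.

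Of 37 other genes that p53 is known to switch on, 35 passed the filter. Of these, 0 were called, 0 had an unadjusted p under 0.05, and 20 had a positive and 15 a negative log2 difference, with a median of 0.016 (between -0.0019, without PBS replicate 3, and 0.039, without FA replicate 2, when 1 tumour was left out). Over all genes tested 50.7% were positive and the median was 0.0016. FA replicate 3 held the highest value for 18 of the 35 (29.4% over all genes tested) and the lowest for 9 (37.5% over all genes tested). FA and PBS values were apart for 2 of the 35, both lower in FA, against 2.22% of all genes tested.

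Among death genes of the p53 programme, Bax, which permeabilises mitochondria, was at 75.05, 77.4 and 106.6 TPM with FA, against 82.3, 78.1 and 81.0 TPM with PBS. FA replicate 3 was thus above the other 5. Bbc3, the PUMA gene, averaged 6.83 ± 0.523 TPM with FA and 7.22 ± 1.11 TPM with PBS (SD, n = 3 each). Apaf1, the apoptosome scaffold, was at 20.8, 20.6 and 19.4 TPM with FA, against 21.5, 25.6 and 21.2 TPM with PBS, and the groups did not overlap. Its log2 difference was -0.16 with an unadjusted p of 0.162 by limma. Gls2, a mitochondrial glutaminase, was the other gene without overlap, at 24.1, 24.4 and 25.5 TPM with FA and 27.0, 28.0 and 25.8 TPM with PBS. The death receptor gene Tnfrsf10b and its TNF receptor family relative Eda2r averaged 24.1 ± 0.748 and 1.63 ± 0.802 TPM with FA, against 22.2 ± 2.66 and 0.937 ± 0.287 TPM with PBS.

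Zmat3, an RNA-binding tumour suppressor, averaged 9.18 ± 0.456 TPM with FA and 9.22 ± 1.33 TPM with PBS (SD, n = 3 each). Phlda3, an inhibitor of AKT, averaged 48.9 ± 4.28 TPM with FA and 50.3 ± 4.70 TPM with PBS. Trp53inp1, a p53 cofactor and autophagy protein, was at 22.2, 20.1 and 9.10 TPM with FA, against 19.6, 19.9 and 17.8 TPM with PBS. FA replicate 3 was the lowest of the 6 tumours for Trp53inp1 and the highest for Cdkn1a and Bax. Gdf15, a secreted stress cytokine, was near the filter at 1.26 ± 0.0839 TPM with FA and 1.09 ± 0.165 TPM with PBS.

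Of 18 p53 family members and regulators, 16 passed the filter and 0 were called, with 9 positive and 7 negative differences and a median of 0.019. Leaving out 1 tumour gave medians between -0.060, without FA replicate 1, and 0.077, without FA replicate 3, on both sides of 0. FA replicate 3 held the lowest value for 11 of the 16 (37.5% over all genes tested). The relatives Trp63 and Trp73 were the 2 under the filter, Trp73 being listed at 0 in 5 of 6 tumours. Chek1, the checkpoint kinase of replication stress, was at 30.9, 27.1 and 29.4 TPM with FA, against 26.5, 25.6 and 24.7 TPM with PBS. All 3 FA values were above the PBS values, which held for 2.48% of all genes tested in this direction. Its log2 difference was 0.18, with an unadjusted p of 0.0683 and an adjusted p of 1 by limma. Mdm4, the partner of Mdm2 that silences p53, averaged 36.5 ± 6.27 TPM with FA and 34.6 ± 2.53 TPM with PBS (SD, n = 3 each). The ribosomal protein gene Rpl5, whose product binds Mdm2 under nucleolar stress, averaged 1316 ± 96.1 TPM with FA and 1388 ± 23.6 TPM with PBS. Crebbp, a p53 acetyltransferase, was at 15.3, 15.3 and 9.63 TPM with FA, against 12.2, 10.5 and 11.8 TPM with PBS.

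All 18 genes of the CDK and RB pathway, on which p16Ink4a, p15Ink4b and p21 act, passed the filter and 0 were called, with 9 positive and 9 negative differences and a median of -0.0072. Leaving out 1 tumour gave medians between -0.038, without FA replicate 3, and 0.020, without FA replicate 2. Cdk4, the kinase that p16Ink4a and p15Ink4b inhibit, was the only one of the 18 without overlap (2.22% of all genes tested were apart and lower in FA), at 769, 784 and 762 TPM with FA, against 794, 797 and 819 TPM with PBS. Its log2 difference was -0.058, with an unadjusted p of 0.272 by limma. Cdk6, its relative, was far less abundant at 9.46 ± 0.846 TPM with FA and 9.11 ± 0.60 TPM with PBS (SD, n = 3 each). Ccnd1, the cyclin partner of both, was at 202, 199 and 251 TPM with FA, against 209, 198 and 201 TPM with PBS. Rb1, the suppressor these kinases inactivate, averaged 17.4 ± 0.543 TPM with FA and 18.2 ± 2.96 TPM with PBS. The related inhibitors Cdkn1b and Cdkn2c averaged 60.2 ± 14.7 and 20.7 ± 1.45 TPM with FA, against 67.0 ± 5.49 and 21.9 ± 1.59 TPM with PBS.

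Of 11 SMAD family members and co-repressors, 10 passed the filter and 0 were called, with 2 positive and 8 negative differences and a median of -0.047. FA replicate 3 held the lowest value for 8 of these 10 genes (37.5% over all genes tested). Without it the median was 0.032, while without any 1 of the other tumours the median lay between -0.14 and -0.037. Smad3 and Smad2, the receptor-activated partners of Smad4, averaged 49.0 ± 3.92 and 37.3 ± 1.97 TPM with FA, against 50.6 ± 3.74 and 36.6 ± 1.84 TPM with PBS (SD, n = 3 each). Trim33, which opposes Smad4, was at 63.7, 64.2 and 45.9 TPM with FA, against 62.6, 58.2 and 66.2 TPM with PBS, with FA replicate 3 alone low.

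The MYC network and MYC targets were measured beside Myc. All 14 network genes passed the filter and 0 were called, with 8 positive and 6 negative differences and a median of 0.022. It lay between -0.036, without PBS replicate 3, and 0.042, without PBS replicate 1, when 1 tumour was left out. Max, the obligate partner of MYC, was almost level, with 64.0 ± 0.716 TPM with FA and 63.7 ± 1.37 TPM with PBS (SD, n = 3 each). Fbxw7, the ubiquitin ligase subunit that marks MYC for degradation, averaged 14.1 ± 0.746 TPM with FA and 15.2 ± 0.58 TPM with PBS. Mlxipl, a glucose-responsive relative, was the 1 network gene of 14 without overlap (2.48% of all genes tested were apart and higher in FA), at 2.13, 1.31 and 1.51 TPM with FA, against 1.15, 1.15 and 1.07 TPM with PBS.

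All 16 MYC target genes passed the filter and 0 were called, with 11 positive and 5 negative differences and a median of 0.058. FA replicate 3 held the highest value for 11 of the 16 (29.4% over all genes tested), and without it the median was -0.015. The median was also below 0 without PBS replicate 2, at -0.022. Srm, the spermidine synthase gene, was at 39.1, 43.1 and 72.1 TPM with FA, against 47.7, 40.4 and 45.8 TPM with PBS. Ncl, encoding nucleolin, averaged 471 ± 62.1 TPM with FA and 434 ± 47.4 TPM with PBS (SD, n = 3 each). Odc1, the ornithine decarboxylase gene, averaged 256 ± 12.5 TPM with FA and 243 ± 10.9 TPM with PBS. Ldha, the lactate dehydrogenase gene, had a lower mean in FA, at 1174, 817 and 929 TPM with FA, against 1069, 1046 and 1092 TPM with PBS, with FA replicate 1 above and FA replicates 2 and 3 below all PBS tumours.

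The 13 other pancreatic cancer drivers all passed the filter and 0 were called, with 5 positive and 8 negative differences and a median of -0.014. It lay between -0.070, without FA replicate 1, and 0.051, without FA replicate 3, when 1 tumour was left out. Stk11, the LKB1 kinase gene, was at 85.2, 85.6 and 80.5 TPM with FA, against 85.8, 91.0 and 93.4 TPM with PBS, the 1 driver of 13 without overlap (2.22% of all genes tested were apart and lower in FA). Tgfbr2, a receptor upstream of Smad4, averaged 39.2 ± 8.22 TPM with FA and 33.02 ± 4.26 TPM with PBS (SD, n = 3 each). Gata6, a transcription factor of the classical subtype, was at 36.4, 33.6 and 22.8 TPM with FA, against 32.5, 34.9 and 33.8 TPM with PBS.

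**Figure D5:**
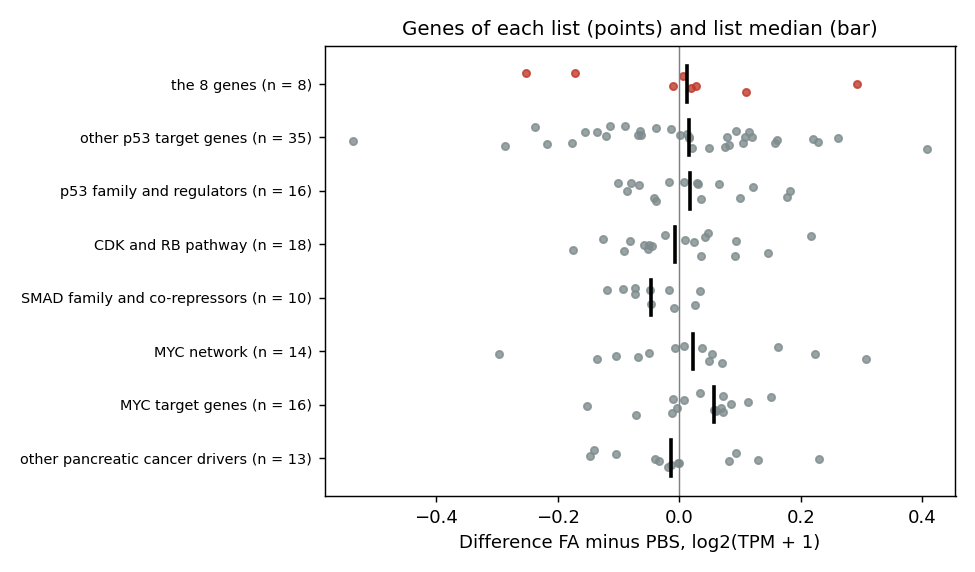
Difference of FA minus PBS tumours in log2(TPM + 1) (horizontal axis) for every gene that passed the filter (points, spread vertically for display) in the 8 genes and in 7 pathway lists, with the median of each (bar). List medians lie between -0.047 and 0.058.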

How the data were processed

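The authors deposited 1 table of TPM per Ensembl gene for 6 tumours. Tools listed in the submitters' processing notes are RSEM, STAR, featureCounts and FastQC, with neither version nor role. Columns were matched to tumours by the sample descriptions. TPM holds no depth, so no counting interval is given. The model was fitted to log2(TPM + 1) by limma 3.58.1 under R 4.3.3 (variance trend, no covariate, two-sided) on genes that averaged 1 TPM or more. A difference on this scale understates the change of genes of few TPM. Errors beside TPM are SD, and intervals are at 95%. The fit was tested on simulated data. The 8 genes, the 7 pathway lists (127 genes) and the marker lists were chosen with earlier results of these data known. The genes named are the 8, up to 4 of each list by unadjusted p, 16 fixed genes, neighbours of the 8 in the RefSeq GRCm38.p6 gene table and the most similar genes. Not every gene this rule takes is described. The values of 1 listed driver are not reported here. The allowance of 1 letter in the p53 motif was set after the sequences were seen. Alternatives covered the pseudocount, filter, scaling, variance model, weights, the replicate number as a block and leaving out each tumour.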

Additional observations from a re-analysis of the deposited data

How the results depend on the processing

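The call of 0 of the 8 genes held in all 15 alternatives. By limma 0 genes were higher and 0 lower with FA, with 192 genes at an unadjusted p under 0.05. Without the filter 2 genes were higher, the short genes Gm24045 and Gm22728, and fits that left out 1 tumour called 0 to 1 genes lower, Snord14d when FA replicate 3 was absent. Myc, Cdkn2a and Ccng1 kept their direction in every alternative, with differences from 0.16 to 0.38, from -0.35 to -0.11 and from 0.059 to 0.16. Differences near 0 changed sign. With array weights Trp53 was at -0.020, Smad4 at 0.036, Cdkn1a at -0.24 and Mdm2 at -0.014. Leaving out 1 tumour gave Trp53 from -0.028 to 0.042, Cdkn2b from -0.28 to 0.011, Smad4 from -0.040 to 0.040, Cdkn1a from -0.30 to 0.33 and Mdm2 from -0.019 to 0.073. The cause of these changes was not tested. With array weights the list median changed sign for the other p53 targets (-0.018), the MYC targets (-0.026) and the SMAD family and co-repressors (0.012). The medians of the other pathway lists kept their sign with array weights. Deviations from the group mean had correlations of -0.21, 0.053 and -0.022 for same-numbered tumours. For differently numbered tumours they lay between -0.192 and 0.245. With 3 tumours in a group these values cannot show whether the numbers pair the tumours. With the replicate number as a block 0 of the 8 genes and 0 of all genes were called, with 178 genes at an unadjusted p under 0.05. Since TPM carries no read numbers, the limit set by depth is unknown.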
